A study of Homo sapiens with 6 samples.

Results

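The keratin family was examined in U251 cells, an established human glioblastoma line, as gene-level RNA sequencing values of 6 libraries. Members were the protein-coding genes whose current symbol is KRT followed by a number and at most 1 further letter, which gave 55 genes of the 20330 Ensembl genes listed in every table. Of the 55, 27 lie on chromosome 12 and 28 on chromosome 17. The libraries formed 2 groups of 3. One held cells with stable overexpression of the long noncoding RNA XLOC013218, and the other held control cells, with the same culture conditions given for both and no further treatment named. The series' design text calls the replicates of each group independent biological ones. What the control cells carry, how the RNA was overexpressed and whether the stable line is 1 clone or a selected population were not given in the sources used here. XLOC013218 itself is not analysed here, so its overexpression was not checked in these libraries.

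Keratins are the intermediate filament proteins of epithelial cells. They fall into acidic type I and basic type II chains, and a filament forms only when a chain of each type pairs with the other. The gene clusters follow the types: the type I genes lie together on chromosome 17, and the type II genes on chromosome 12 together with KRT18, the type I partner of KRT8. KRT8 and KRT18 mark simple epithelia, KRT5 and KRT14 the basal layer of stratified epithelia, KRT1 and KRT10 its differentiating layers, and a further set builds hair and nail. Astrocytes and gliomas build their filaments mainly from vimentin, GFAP and nestin, and several carcinoma and non-epithelial lines also carry KRT8 and KRT18.

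Levels were given in FPKM, which are fragments scaled to transcript length and to the mapped total, so read totals are unknown. The relative depth estimated from the steps between low values lay between 0.782 and 0.902 in overexpression libraries and between 0.784 and 1.0 in control libraries. The libraries summed to between 598683 and 621922 FPKM, and no pair was a duplicate. Genes listed at 0 numbered 4413, 4446 and 4379 in overexpression replicates 1 to 3 and 4694, 4601 and 4740 in control replicates 1 to 3, without overlap. Of 8 glioma and mesenchymal markers, 6 averaged at least 1 FPKM, with VIM, CD44 and SOX2 the highest, while S100B and OLIG2 stayed under it. These 8 summed to between 4763 and 4982 FPKM in overexpression libraries and between 5037 and 5420 FPKM in control libraries, without overlap. Most of this sum was VIM and CD44, and each of these overlapped between the groups. SOX2 and GFAP were lower in all 3 overexpression libraries, while FN1 was higher in all 3. Of all tested genes, 18.9% had groups that did not overlap. The part of these markers in the results was not tested. Of 8 epithelial markers 1 reached 1 FPKM, CLDN4, and the defining marker CDH1 was at 0.13, 0.00 and 0.07 FPKM in overexpression libraries and at 0 in all 3 control libraries. The epithelial markers summed to between 2.19 and 2.73 FPKM in overexpression libraries and between 2.63 and 2.68 FPKM in control libraries. Of 10 keratinocyte markers, 5 were listed at 0 throughout and FLG alone reached 1 FPKM, with sums between 3.33 and 3.73 FPKM in overexpression libraries and between 3.40 and 4.08 FPKM in control libraries. None of 4 leukocyte markers reached it, and 2 were listed at 0 throughout. The 4 summed to between 0.73 and 1.48 FPKM in overexpression libraries and between 0.44 and 0.70 FPKM in control libraries, without overlap. PTPRC, the pan-leukocyte marker CD45, was at 0.65, 0.39 and 0.52 FPKM in overexpression replicates and at 0.13, 0.17 and 0.15 FPKM in control replicates, and its part in the results was not tested. In cultures of this kind, fewer cells that express a gene and less RNA per cell cannot be told apart.

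U251 cells expressed few keratins. Averaged over the 6 libraries, 9 of the 55 reached 1 FPKM: KRT8, KRT18, KRT80, KRT10, KRT81, KRT15, KRT13, KRT7 and KRT19. A further 16 were listed above 0 in at least 1 library, and 30 were listed at 0 in all 6. The 9 were 5 type I and 4 type II chains, so both partners of a filament were present. The lowest of the 9 was KRT19 with a mean of 3.27 FPKM, and the highest below 1 FPKM was KRT14 with 0.367 FPKM, so no member lay near the limit. Of the 17 type I epithelial keratins 5 reached it, of the 20 type II epithelial keratins 3, of the 6 type II hair keratins 1, and of the 11 type I hair keratins none. KRT222, a keratin-like gene outside these 4 classes, was above 0 in 1 library.

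**Figure D1:**
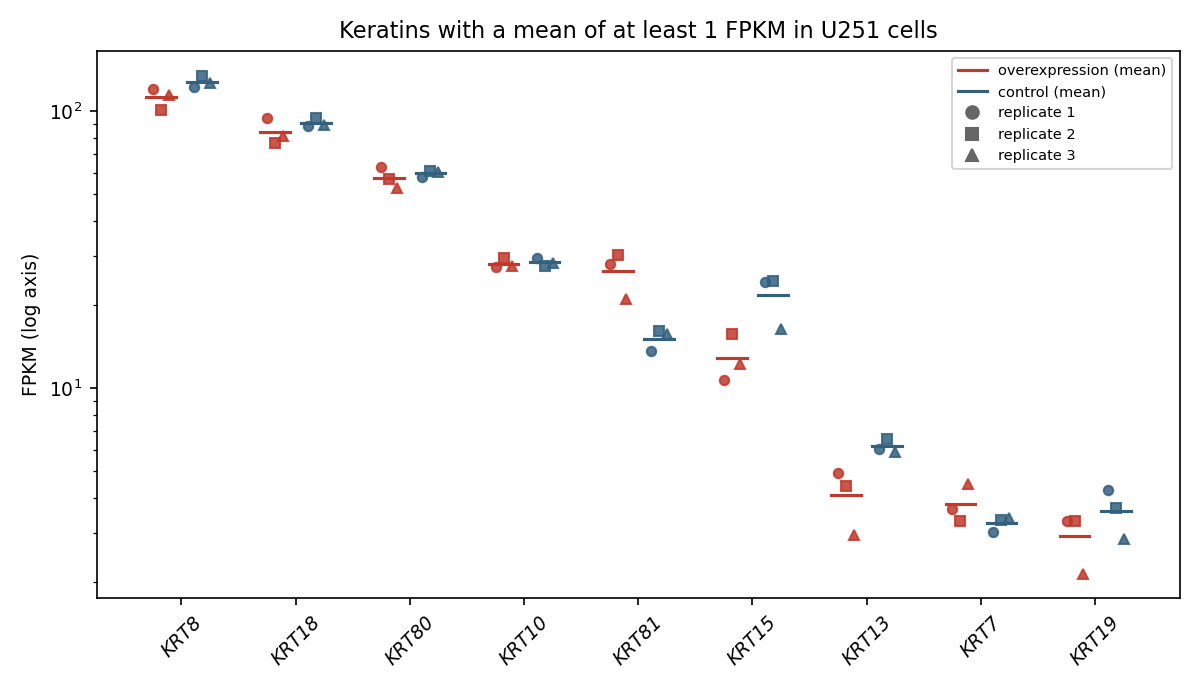
FPKM on a log axis of the 9 keratins with a mean of at least 1 FPKM, ordered by mean level; points are libraries, with overexpression left of control for each gene and lines at the group means. KRT81 is higher in all 3 overexpression libraries, KRT15, KRT13 and KRT8 are lower in all 3, and the other 5 overlap between groups.

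KRT8 and KRT18 together made up between 55.3% and 61.0% of the summed keratin FPKM in overexpression libraries and between 60.2% and 61.4% in control libraries. The mean FPKM of KRT8 over all libraries was at or above that of 95.7% of all listed genes. On the same per-length scale vimentin stood far above it: VIM was between 29.4 and 36.6 times KRT8 in overexpression libraries and between 28.5 and 32.8 times KRT8 in control libraries. All keratins summed to 334 ± 21.2 FPKM in overexpression cells and 357 ± 12.9 FPKM in control cells (SD, n = 3 each), with overlapping values. Type II chains summed to 201 ± 13.4 FPKM in overexpression cells and 206 ± 8.94 FPKM in control cells. These type II sums overlapped between the groups. Type I chains summed to 133 ± 8.01 FPKM in overexpression cells and 151 ± 6.51 FPKM in control cells. The type I sums did not overlap, at 142, 130 and 127 FPKM in overexpression replicates 1 to 3 and at 152, 157 and 144 FPKM in control replicates 1 to 3. The ratio of type II to type I FPKM was 1.52, 1.48 and 1.53 in overexpression replicates 1, 2 and 3 and between 1.29 and 1.43 in control replicates. All 3 overexpression ratios thus lay above the control ones, with the type I sums lower in all 3. With KRT81 left out of the type II sums the ratios overlapped between the groups.

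The comparison asked which keratins differ when XLOC013218 is overexpressed. Of the 9 tested, KRT81 rose, none fell and 8 did not pass. The fit covered all 11704 Ensembl genes with a mean of at least 1 FPKM and used limma on log2(FPKM + 1). A gene was called at an adjusted p under 0.05, which held for 0.521% of all tested genes, 61 in number, or 0.316% as higher and 0.205% as lower. At an unadjusted limma p under 0.05 there were 4 keratins, KRT81, KRT15, KRT13 and KRT8, against 12.7% of all tested genes. The same 4 had groups that did not overlap, 1 above and 3 below, against 18.9% of all tested genes, 8.81% above and 10.1% below. The median log2 fold change of the 9 was -0.11, beside -0.0008 over all tested genes, and the median absolute change 0.19 beside 0.08. With 9 members these counts and medians describe the family and carry no test. After rescaling to TPM, 30 genes were called higher and 31 lower, against 37 higher and 24 lower in FPKM, and 50 genes were called on both scales.

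**Figure D2:**
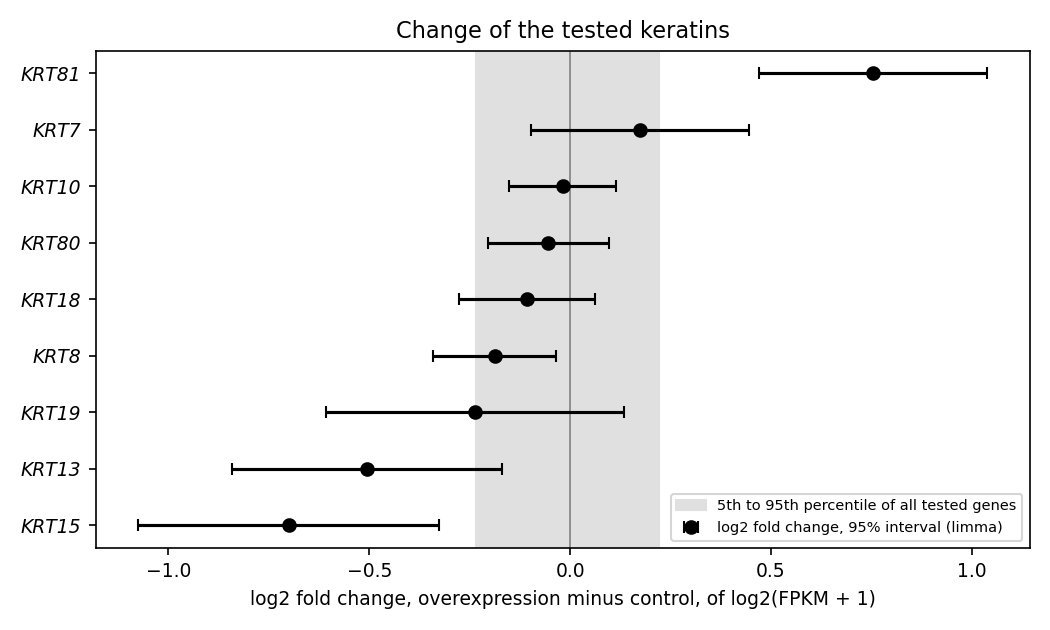
Log2 fold change of log2(FPKM + 1), overexpression minus control, with 95% intervals from limma for the 9 tested keratins; the grey band spans the 5th to the 95th percentile of all tested genes, from -0.23 to 0.22. The interval of KRT81 lies wholly above the band, that of KRT15 wholly below it, and those of KRT10, KRT80, KRT18, KRT7 and KRT19 include 0.

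Among the simple epithelial keratins, KRT8 (ENSG00000170421), the type II chain, was at 120, 101 and 114 FPKM in overexpression replicates 1 to 3 and at 122, 134 and 126 FPKM in control replicates 1 to 3. Every overexpression value lay below every control value, but the gap was narrow. The log2 fold change was -0.19 (SE 0.07, limma adjusted p = 0.296), and its 95% interval ran from -0.34 to -0.03. KRT18 (ENSG00000111057), its partner chain, was at 94.8, 77.0 and 81.1 FPKM in overexpression replicates and at 88.1, 94.4 and 89.1 FPKM in control replicates. Overexpression replicate 1 was the highest of all 6, so the groups overlapped, and the log2 fold change was -0.11 with an interval from -0.28 to 0.06 (limma adjusted p = 0.606). KRT8 stood above KRT18 in every library, at between 1.27 and 1.41 times its FPKM in overexpression libraries and between 1.39 and 1.42 times in control libraries. Over the 6 libraries KRT8 and KRT18 had a Pearson r of 0.87 on the log2(FPKM + 1) scale, given as a description since both values of a point come from the same library. Between GENCODE 29 genes, KRT8 and KRT18 overlap on opposite strands. The annotation also holds 50 processed or other copies named as KRT8 pseudogenes and 67 named as KRT18 pseudogenes, of which 0 are listed in the tables used here, so where reads from such copies were counted was not tested.

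KRT7 (ENSG00000135480), a type II chain of glandular and ductal epithelia, was at 3.66, 3.30 and 4.49 FPKM in overexpression replicates and at 3.02, 3.34 and 3.40 FPKM in control replicates. KRT19 (ENSG00000171345), a small type I chain of simple epithelia, was at 3.31, 3.32 and 2.14 FPKM in overexpression replicates and at 4.27, 3.70 and 2.86 FPKM in control replicates. Both genes overlapped between the groups, and neither passed. Overexpression replicate 3 held the highest value of KRT7 and the lowest of KRT19. Their log2 fold changes were 0.17 (interval -0.10 to 0.44) and -0.24 (interval -0.61 to 0.13), each with a limma adjusted p of 0.604. KRT20, the chain typical of intestinal epithelium and the last of the 5 simple keratins, was listed at 0 in all 6 libraries.

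KRT80 (ENSG00000167767), a type II chain found in many epithelia, was the third most abundant keratin. It was at 63.0, 56.8 and 52.8 FPKM in overexpression replicates and at 57.9, 61.0 and 60.1 FPKM in control replicates. The overexpression values lay on both sides of the control values, and the log2 fold change was -0.05 (interval -0.21 to 0.10, limma adjusted p = 0.793). KRT10 (ENSG00000186395), the type I chain of differentiating epidermis, was at 27.28, 29.45 and 27.53 FPKM in overexpression replicates and at 29.45, 27.64 and 28.25 FPKM in control replicates. The groups overlapped, and its log2 fold change was -0.02 (interval -0.15 to 0.12, limma adjusted p = 0.934). Its type II partner in epidermis, KRT1, was listed at 0 in all 6 libraries. KRT10 overlaps KRT10-AS1 on the opposite strand, which averaged 11.9 ± 1.71 FPKM in overexpression cells and 11.2 ± 1.22 FPKM in control cells. The library kit was stranded, per the labels' protocols, but whether counting used the strand was not given in the sources used here, so reads of such overlapping pairs may not be told apart.

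KRT15 and KRT13 stood lower in overexpressing cells without passing the test. KRT15 (ENSG00000171346), a type I chain of basal keratinocytes and of hair follicle stem cells, was at 10.7, 15.7 and 12.2 FPKM in overexpression replicates and at 24.2, 24.3 and 16.4 FPKM in control replicates. The groups did not overlap, though overexpression replicate 2 and control replicate 3 nearly met. The overexpression mean was 0.595 times the control mean and the log2 fold change -0.70 (SE 0.17, interval -1.08 to -0.33, limma adjusted p = 0.120). Only 0.436% of tested genes had a larger absolute change. Of 14 alternative settings KRT15 passed in 1, the fit that weights libraries by their quality, where limma gave an adjusted p of 0.0277. The highest of the 14 was 0.368.

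KRT13 (ENSG00000171401), a type I chain of the suprabasal layers of mucosal epithelia such as the oesophagus, was at 4.95, 4.42 and 2.95 FPKM in overexpression replicates and at 6.02, 6.55 and 5.89 FPKM in control replicates. All 3 overexpression values lay below the controls, and overexpression replicate 3 was the lowest. The overexpression mean was 0.667 times the control mean, and the log2 fold change was -0.51 (SE 0.15, interval -0.84 to -0.17, limma adjusted p = 0.195). It passed under none of 14 alternative settings, with a limma adjusted p from 0.0714 to 0.469. KRT13, KRT15 and KRT19 are direct neighbours among the keratin genes of chromosome 17. Each had a negative log2 fold change in the 14 settings that gave one, or 13 for KRT19, whereas KRT14, KRT16 and KRT17, next along the same cluster after KRT9, stayed under the filter. KRT4, the type II partner of KRT13 in mucosa, was listed at 0 in all 3 control libraries and at 0.03 FPKM in overexpression replicate 3 alone.

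**Figure D3:**
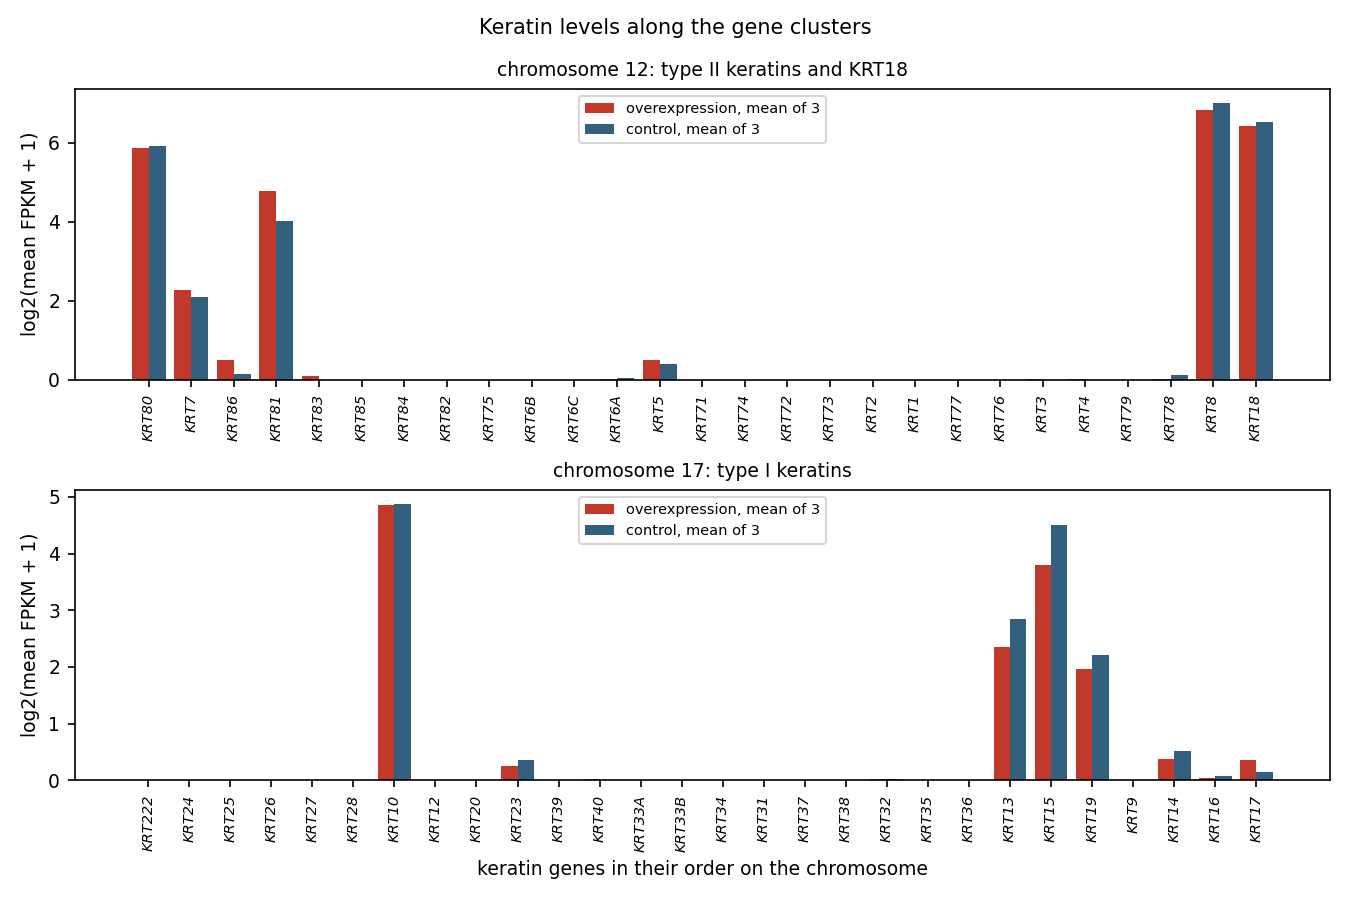
Bars give log2(mean FPKM + 1) for every keratin in its order along chromosome 12 and chromosome 17, with overexpression left of control; each bar is a mean of 3 libraries. Expressed keratins sit at both ends of the chromosome 12 cluster, KRT80 to KRT81 at one end and KRT8 with KRT18 at the other, and on chromosome 17 at KRT10 and at the run KRT13, KRT15 and KRT19.

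KRT81 (ENSG00000205426), a type II keratin of the hair cortex, was the keratin that rose. It was at 28.0, 30.2 and 20.9 FPKM in overexpression replicates and at 13.6, 16.1 and 15.6 FPKM in control replicates. Every overexpression value lay above every control value, with overexpression replicate 3 the nearest to them. The group means were 26.4 ± 4.85 FPKM in overexpression cells and 15.1 ± 1.32 FPKM in control cells (SD, n = 3 each), a ratio of 1.75. On the log2 scale it rose by 0.75 (SE 0.13, 95% interval 0.47 to 1.04, limma adjusted p = 0.0408), and 0.367% of tested genes had a larger absolute change. KRT81 was at between 1.71 and 2.62 times the FPKM of KRT15 in overexpression libraries and at between 0.562 and 0.953 times in control libraries. The order of these genes thus differed between the groups. They are the tested keratins with the largest rise and the largest fall, so this follows largely from the choice of pair, and KRT15 itself did not pass.

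The call of KRT81 was close to the threshold and rested on the libraries used. It was lost without control replicate 1, 2 or 3 (limma adjusted p = 0.137, 0.120 and 0.121) and without overexpression replicate 1 or 2 (limma adjusted p = 0.114 and 0.105), and it held without overexpression replicate 3 (limma adjusted p = 0.00959). Rescaling to TPM ended the call as well (limma adjusted p = 0.0519). So did testing all 17559 genes above 0 in at least 1 library (limma adjusted p = 0.18). A limma fit with a constant prior variance (adjusted p = 0.144) and the replicate number as a block (limma adjusted p = 0.0737) ended it too. In each of the 14 alternatives the log2 fold change was positive, from 0.65 to 0.91.

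KRT81 shares much of its sequence with its neighbours KRT86 and KRT83, which are type II hair keratins too. In GENCODE 29 the KRT81 gene lies within the span of KRT86 on the opposite strand, and KRT7 overlaps KRT86 on the same strand. Of the 50-base stretches in KRT81 transcripts, 37.6% also occur in KRT86 transcripts, and 41.3% occur in some other keratin. For each of the other 8 tested keratins at most 0.561% do. The coding sequences of KRT81 and KRT86 are identical over a run of 605 bases, positions 61 to 665 of the KRT81 coding sequence, while the longest run shared with KRT83 is 95 bases. Over the whole alignment KRT81 is 89.6% identical to KRT86 and 89.3% identical to KRT83. The 90 coding bases in which KRT81 and KRT86 differ most are shown because reads from such stretches can tell these genes apart. Capitals mark positions at which the 3 genes are not all the same, the sequences are GENCODE 29 transcript sequences of genes on chromosome 12 (GRCh38), 5′ to 3′, and positions count from the start codon.
KRT81, coding bases 1237 to 1326: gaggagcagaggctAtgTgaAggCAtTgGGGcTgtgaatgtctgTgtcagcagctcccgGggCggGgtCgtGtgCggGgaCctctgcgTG
KRT86, coding bases 1237 to 1326: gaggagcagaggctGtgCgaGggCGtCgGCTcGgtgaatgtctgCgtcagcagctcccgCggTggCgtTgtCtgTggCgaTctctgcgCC
KRT83, coding bases 1252 to 1341: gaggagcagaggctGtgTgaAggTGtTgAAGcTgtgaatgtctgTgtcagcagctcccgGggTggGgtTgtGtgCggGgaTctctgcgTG
In this window KRT86 differs from KRT81 at 19 bases and KRT83 at 8.

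The neighbours were listed at far lower levels than KRT81. KRT86 (ENSG00000170442) was at 0.23, 0.60 and 0.38 FPKM in overexpression replicates and at 0.18, 0.09 and 0.06 FPKM in control replicates. KRT83 (ENSG00000170523) was at 0.03, 0.06 and 0.08 FPKM in overexpression replicates and was listed at 0 in all 3 control replicates. In both genes the overexpression values lay above the control values, as in KRT81, but both were under the filter and have no test in the main fit. Over all tested genes 8.81% had all overexpression values higher, and no such share was counted under the filter. Each overexpression library also listed fewer genes at 0 than each control library, and the part of this in such trace values was not tested. How the authors' counting divided reads from the shared stretches among the 3 genes was not given in the sources used here, so the values of KRT86 and KRT83 and, to the extent of the shared part, KRT81 are uncertain. The other hair keratins of type II, KRT82, KRT84 and KRT85, were listed at 0 in all 6 libraries. Of the 11 type I hair keratins, KRT32 and KRT40 were above 0 in some library and 9 were at 0 throughout.

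KRT5, KRT14, KRT17 and KRT23 were at trace levels, with overlapping groups. KRT5, the basal type II chain, was at 0.87, 0.00 and 0.35 FPKM in overexpression replicates and at 0.14, 0.20 and 0.60 FPKM in control replicates. KRT14, its type I partner, was at 0.49, 0.13 and 0.27 FPKM in overexpression replicates and at 0.14, 0.35 and 0.82 FPKM in control replicates. Overexpression replicate 2 held the lowest value of both genes, and control replicate 3 the highest of KRT14. KRT17, a type I chain induced in wounded epidermis, was at 0.54, 0.00 and 0.31 FPKM in overexpression replicates and at 0.00, 0.00 and 0.34 FPKM in control replicates. KRT23, a type I chain of some glandular epithelia, was at 0.10, 0.10 and 0.37 FPKM in overexpression replicates and at 0.03, 0.19 and 0.63 FPKM in control replicates. In each of these 4 genes the groups overlapped. The 16 keratins above 0 and under 1 FPKM summed to 2.33, 1.07 and 1.89 FPKM in overexpression replicates and to 0.710, 0.890 and 2.76 FPKM in control replicates, with control replicate 3, overexpression replicate 1 and overexpression replicate 3 the highest. Of the 5 wound-induced keratins, KRT16, KRT17 and KRT6A were above 0 in some library, and KRT6B and KRT6C were at 0 in all 6. The other 11 of the 16 averaged under 0.1 FPKM.

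**Figure D4:**
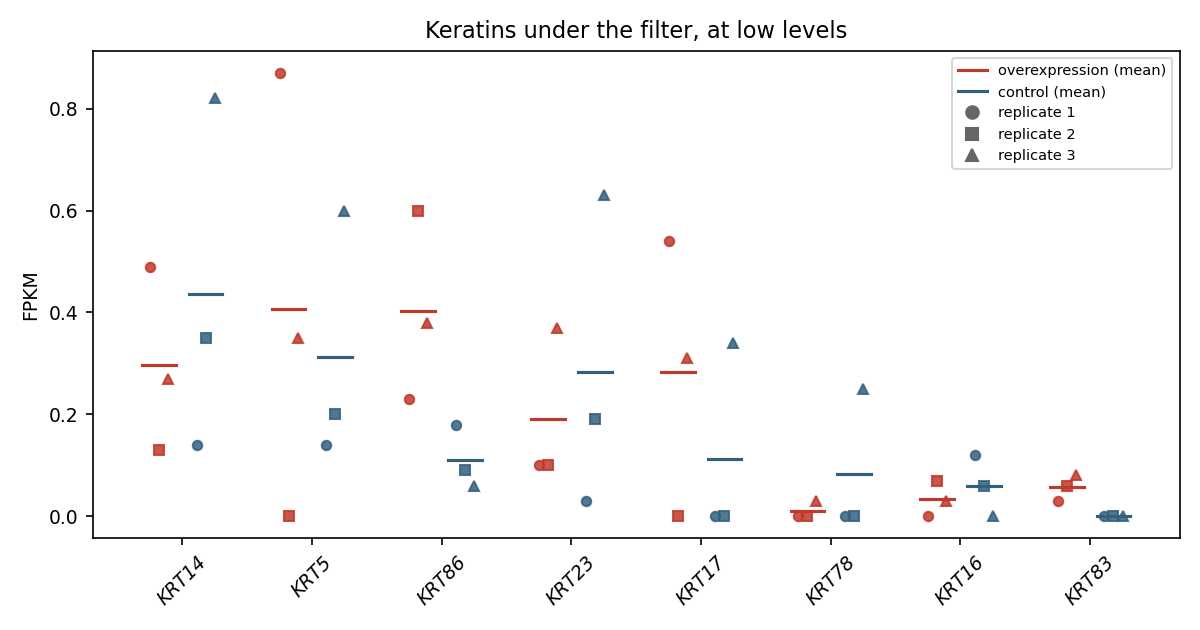
FPKM on a linear axis of the 8 keratins with a mean above 0.02 and under 1 FPKM, with overexpression left of control, points for libraries and lines for group means. KRT14, KRT5, KRT23 and KRT17 overlap between groups, with control replicate 3 or overexpression replicate 1 highest in each, while KRT86 and KRT83 are higher in the 3 overexpression libraries.

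Other intermediate filament genes gave 0 calls. Of 16 listed, 15 were in the tables and 9 tested, 0 passed over all genes in limma, 2 had an unadjusted p under 0.05 (12.7% of all tested genes did), and the median log2 fold change was -0.10. The most abundant members were VIM, LMNA, LMNB2 and LMNB1. VIM averaged 3581 ± 109 FPKM in overexpression cells and 3840 ± 222 FPKM in control cells. GFAP, the filament protein of astrocytes, was at 30.05, 14.36 and 20.43 FPKM in overexpression replicates and at 34.7, 46.0 and 44.1 FPKM in control replicates, and SYNC, a filament-associated protein, averaged 26.7 ± 0.759 FPKM in overexpression cells and 32.9 ± 1.49 FPKM in control cells. Both had lower values in all 3 overexpression libraries without passing (limma adjusted p = 0.107 and 0.0785), and so had SYNM (limma adjusted p = 0.428). These were 3 of the 9 tested, beside 10.1% of all tested genes, and 0 of the 9 had all values higher.

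Desmosome, hemidesmosome and plakin genes, whose proteins anchor keratin filaments to the membrane, gave 0 calls too. Of 21 present 12 were tested, 0 passed in limma, 3 had an unadjusted p under 0.05, beside 12.7% of all tested genes, and the median log2 fold change was -0.06. ITGB4, the integrin chain of the hemidesmosome, was at 69.2, 67.8 and 74.9 FPKM in overexpression replicates and at 102.64, 98.58 and 84.05 FPKM in control replicates. All of its overexpression values were lower, with a log2 fold change of -0.42 (SE 0.08), and it just missed the threshold (limma adjusted p = 0.0535). It passed on the TPM scale, among genes of at least 5 FPKM and when libraries were weighted by quality (limma adjusted p = 0.0413, 0.0418 and 0.0177). The other highest members were PLEC, the plectin linker, DST and JUP, with overlapping groups. DSP, the main desmosomal plakin, averaged 6.68 ± 0.916 FPKM in overexpression cells and 4.79 ± 0.183 FPKM in control cells (limma adjusted p = 0.160). All of its overexpression values were higher. Of the 12 tested, 1 had all overexpression values higher and 2 had all lower, beside 8.81% and 10.1% of all tested genes.

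Epithelial identity genes were mostly under the filter. Of 25 present 5 were tested, 0 passed in limma, 1 had an unadjusted p under 0.05, beside 12.7% of all tested genes, and the median log2 fold change was -0.22. ELF3, an epithelial ETS factor and the highest member, was at 17.4, 12.6 and 15.8 FPKM in overexpression replicates and at 21.1, 21.4 and 21.7 FPKM in control replicates, with all overexpression values lower (limma adjusted p = 0.101). OCLN, MUC1 and CLDN4, the next most abundant, overlapped between the groups. Of 25 cornified envelope genes 3 were tested, CNFN, FLG and TGM5, with 0 called in limma, 0 at an unadjusted p under 0.05 and a median of -0.06.

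Of 22 genes whose products bind or organise keratins 18 were tested, with 0 called in limma, 1 at an unadjusted p under 0.05, beside 12.7% of all tested genes, and a median log2 fold change of -0.007. Its most abundant members were the chaperones HSPA8 and HSPB1 and the 14-3-3 proteins YWHAE and YWHAZ. HSPA8 averaged 1434 ± 36.5 FPKM in overexpression cells and 1310 ± 25.4 FPKM in control cells, with all overexpression values higher, and the other 3 overlapped between the groups. Of 29 transcription factors listed here as regulators of keratin genes 22 were tested. In limma 1 rose, 0 fell and 21 did not pass, beside 0.521% of all tested genes called in either direction. At an unadjusted limma p under 0.05 there were 4 of the 22, beside 12.7% of all tested genes, and the median log2 fold change was 0.007. The one that rose was FOSL1, an AP-1 subunit, at 46.4, 50.4 and 44.2 FPKM in overexpression replicates and at 34.4, 35.1 and 34.9 FPKM in control replicates. It rose by 0.42 on the log2 scale (SE 0.06, limma adjusted p = 0.0276), with every overexpression value higher. The call of FOSL1 was lost without overexpression replicate 1 and without control replicate 1, 2 or 3, when 0 genes of the list passed. The other most abundant members did not pass: JUN, a further AP-1 subunit, averaged 122 ± 17.4 FPKM in overexpression cells and 129 ± 8.69 FPKM in control cells, CEBPB 62.0 ± 5.44 FPKM in overexpression cells and 53.5 ± 3.72 FPKM in control cells, and TFAP2A 46.0 ± 1.08 FPKM in overexpression cells and 50.2 ± 3.56 FPKM in control cells. HOXC13, a factor of the hair follicle that activates hair keratin genes, was at 18.45, 16.96 and 14.06 FPKM in overexpression replicates and at 12.49, 13.66 and 12.95 FPKM in control replicates. Its overexpression values were all higher, but it did not pass (log2 fold change 0.31, limma adjusted p = 0.243). Of the 22 tested, 4 including HOXC13 had all overexpression values higher and 0 had all lower. Over all tested genes these shares were 8.81% and 10.1%. HOXC13 was named after its values were seen, and any link to KRT81 was not tested.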

How the data were processed

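The authors deposited 1 table per library with FPKM values per gene, rounded to 2 decimals. Per the labels' protocols, the libraries were stranded and poly(A) selected, while the series' design text describes cytoplasmic RNA without such selection. The submitters' processing notes name the build hg18 and, without their roles, edgeR, RSEM 1.3.1, Cufflinks 2.2.1, Bowtie and TopHat, so no genome coordinates are printed. Current symbols were found for 19447 of the 20330 identifiers, and gene types, order and transcripts from GENCODE 29. Rows of assembled loci, which end at a different place in each table, were not used.

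Groups were taken from the titles. Genes that averaged 1 FPKM or more were tested on log2(FPKM + 1), without further scaling, with limma-trend (limma 3.58.1, R 4.3.3), two-sided, with Benjamini-Hochberg adjustment over all 11704 tested genes. The test was checked only on simulated data with changes larger than that of any keratin here, so the check does not cover changes of this size. Fold changes on this scale understate the change of low genes. An exact permutation test of 3 against 3 cannot go below p = 0.1. The rule for naming took all keratins of at least 1 FPKM and, of each other list, called members and the 4 most abundant. Named after their values were seen were KRT4, KRT1, KRT20, KRT86, KRT83, the other keratins under 1 FPKM and GFAP, SYNC, SYNM, DSP, HOXC13, FN1 and PTPRC. Also named outside the rule were KRTCAP3, KRTAP5-2, KRT10-AS1 and further cell type markers such as CDH1. The members and lists were chosen with earlier results of these data known. Values were handled with Python 3.11.15 and pandas 2.3.3.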

Additional observations from a re-analysis of the deposited data

How the results depend on the processing

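The count of 61 called genes, the 1 called keratin and the 1 called keratin regulator depended on several settings. So did the 0 calls of the other filament, desmosome and epithelial lists, in 1 setting or more. The cornified envelope and keratin-binding lists stayed at 0 calls in all 14 alternatives. With no filter on low values there were 1 called gene, 0 keratins and 0 regulators, and the median log2 fold change of the keratins was -0.014, over more members. Without a trend in limma there were 1, 0 and 0. With array quality weights there were 196 genes, 2 keratins (KRT81 and KRT15), 2 other filament genes (GFAP and SYNC), 1 desmosome gene (ITGB4) and 1 epithelial gene (ELF3). After rescaling to TPM there were 0 keratins and 1 desmosome gene, and at a mean of at least 5 FPKM 1 desmosome gene, ITGB4 in both. Apart from the changed filter, the cause was not tested.

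With 1 library left out, called genes lay between 1 and 60, called keratins between 0 and 1, called regulators between 0 and 1, the keratin median between -0.19 and -0.052, and keratins with groups that do not overlap between 4 and 6. The log2 fold change of KRT10 lay between -0.052 and 0.0063, reversed at 0.0018 without overexpression replicate 1 and at 0.0063 without control replicate 1. That of KRT80 lay between -0.12 and 0.0042, reversed without overexpression replicate 3. The replicate number as a block gave 19 genes, 0 keratins and 0 regulators. Same-numbered libraries showed no strong shared deviation (correlations -0.0399, -0.0564 and 0.0490 for replicates 1 to 3). This cannot tell whether they were prepared together. A limit of 0.1 FPKM in place of 1 gave 14 detected keratins. The depth in reads is unknown. The 16 keratins above 0 and under 1 FPKM were tested only in the fit without the filter, which covered 25 keratins and called 0.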

Other observations

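Keratin-associated proteins, which cross-link hair keratins in the hair shaft, were almost all unexpressed. Of 92 present 78 were listed at 0 in all 6 libraries and 14 were above 0 in at least 1. KRTAP5-2 was the 1 member tested, at 1.40, 0.970 and 1.86 FPKM in overexpression replicates and at 1.3, 1.43 and 2.02 FPKM in control replicates, with overlapping groups (log2 fold change -0.11, limma adjusted p = 0.849). KRTCAP3, a gene named as keratinocyte-associated, was at 0.10, 0.00 and 0.45 FPKM in overexpression replicates and at 0.00, 0.06 and 1.06 FPKM in control replicates, so that its highest value was in control replicate 3, as for KRT14 and KRT23.

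Over the 6 libraries the 5 named genes with the pattern most like that of KRT8 on the log2(FPKM + 1) scale were NR2E1, ZBTB4, ACTR1B, HOOK2 and NAGLU, with Pearson r between 0.986 and 0.994. All 5 had lower values in each overexpression library than in each control library, beside 10.1% of all tested genes. KRT8 had the same order and the 5 were picked for likeness to it, so this follows largely from the choice. With 6 points that share their libraries, among 11704 tested genes, these correlations are a description.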
